A study of Homo sapiens with 8 samples.

Results

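ChIP-seq peaks of H3K27ac and H3K4me3 were compared within HL-60 cells treated with all-trans retinoic acid (ATRA), using 4 of the 8 libraries of the series, 2 for each mark. HL-60 is a line established from peripheral blood of a patient with promyelocytic leukemia, and ATRA drives its cells toward a granulocyte-like state. The 4 libraries came from cells given 1 µM ATRA for 4 days, with medium and agent renewed on day 2, and the other 4 libraries came from cells given the same volume of ethanol, named control here. Chromatin was immunoprecipitated with antibodies to H3K4me3 or H3K27ac, both from abcam. All cells were of one line, no library was made from primary neutrophils, and nothing in the labels says whether the 2 replicates of a mark came from separate cultures, so the spread between them may be technical. Peaks on chromosomes 1 to 22 and X were used, a replicate 1 peak was kept when it shared at least 1 bp with a replicate 2 peak of the same mark, and kept peaks of both marks that overlapped were merged into 1 site. This gave 23891 sites. The whole series holds 174749 peaks over its 8 libraries. The same steps gave 16946 sites in control cells.

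H3K4me3 is deposited around active and poised transcription start sites (TSS), most strongly at promoters rich in CpG dinucleotides, and it is bound by proteins that help to assemble the transcription machinery. H3K27ac is laid down by the acetyltransferases p300 and CBP at active promoters and at active enhancers, where H3K4me3 is low or missing. A place with both marks is therefore usually read as an active promoter and a place with H3K27ac alone as an active enhancer. In neutrophil differentiation, genes for granule proteins, the NADPH oxidase and chemoattractant receptors are switched on in stages, with factors of the C/EBP, PU.1 and RUNX families acting at many of their enhancers.

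Of the 23891 sites in ATRA-treated cells, 9232 (38.6%) carried both marks, 10364 (43.4%) carried H3K27ac alone and 4295 carried H3K4me3 alone. In bulk chromatin, a mark in fewer cells and less of it per cell cannot be told apart. The classes differed in sequence, which is shown first for 5 of the longest sites and for the genes CHI3L1 and ZNF419. Each stretch of 150 bases, read 5′ to 3′ from hg19 with CpG dinucleotides in capitals, was taken upstream of a start site or, where a site held no coding start, from its middle. SIRPA, an inhibitory receptor of myeloid cells, and C10orf105 stand for the sites with both marks. The middle of the longest site with H3K27ac alone, on chromosome 1, and the middle of the RNF216 intron site stand for that class. The promoter of CHI3L1, a secreted glycoprotein of specific granules, stands beside them. CD151, which encodes a tetraspanin and lies in the second longest site of its class, and ZNF419, a zinc finger gene, stand for H3K4me3 alone, and these few stretches do not represent their classes.
SIRPA, both marks, chr20:1874513-1874662, plus strand: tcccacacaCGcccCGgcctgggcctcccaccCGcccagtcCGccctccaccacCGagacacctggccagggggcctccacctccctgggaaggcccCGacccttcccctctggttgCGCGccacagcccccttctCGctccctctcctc
C10orf105, both marks, chr10:73497582-73497731, minus strand: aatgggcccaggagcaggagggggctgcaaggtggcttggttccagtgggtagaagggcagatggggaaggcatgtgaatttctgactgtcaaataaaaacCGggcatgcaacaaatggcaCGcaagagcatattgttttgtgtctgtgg
Chromosome 1 site, H3K27ac alone, chr1:235019201-235019350, plus strand: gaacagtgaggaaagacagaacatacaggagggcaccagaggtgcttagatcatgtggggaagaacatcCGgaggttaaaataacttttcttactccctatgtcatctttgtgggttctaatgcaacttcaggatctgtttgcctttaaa
RNF216 intron, H3K27ac alone, chr7:5722701-5722850, plus strand: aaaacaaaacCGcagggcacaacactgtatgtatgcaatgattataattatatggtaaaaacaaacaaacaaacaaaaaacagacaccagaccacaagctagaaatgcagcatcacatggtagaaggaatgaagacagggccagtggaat
CHI3L1, H3K27ac alone, chr1:203155833-203155982, minus strand: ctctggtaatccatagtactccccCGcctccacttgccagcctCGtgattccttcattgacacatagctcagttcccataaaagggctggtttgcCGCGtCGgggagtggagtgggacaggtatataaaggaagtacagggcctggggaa
CD151, H3K4me3 alone, chr11:832437-832586, plus strand: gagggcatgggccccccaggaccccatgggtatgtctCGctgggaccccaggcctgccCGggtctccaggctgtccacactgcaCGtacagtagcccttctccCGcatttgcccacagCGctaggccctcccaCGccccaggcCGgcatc
ZNF419, H3K4me3 alone, chr19:57998929-57999078, plus strand: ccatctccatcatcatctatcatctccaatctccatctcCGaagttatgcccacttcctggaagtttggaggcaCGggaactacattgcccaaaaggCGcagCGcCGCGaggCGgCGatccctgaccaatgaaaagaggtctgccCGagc
The stretches at SIRPA and ZNF419 hold 9 CpG each, CD151 holds 7, CHI3L1 holds 5, C10orf105 holds 2, and the chromosome 1 and RNF216 stretches hold 1 each.

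The single stretches thus overlapped between the classes, and medians over whole sites were compared next. Sites with H3K4me3 alone that held a TSS had a median of 3.75 CpG per 100 bases, and sites with both marks and a TSS had 2.78. Sites with H3K27ac alone that held a TSS had 1.33, and the genome has 0.987 on chromosomes 1 to 22 and X. Among sites without any TSS the medians were 1.20 with both marks, 0.964 with H3K27ac alone and 1.34 with H3K4me3 alone. Each single H3K27ac library was then set against each single H3K4me3 library. The medians of sites with a TSS spanned 2.77 to 2.80 for both marks and 1.10 to 1.41 for H3K27ac alone. For H3K4me3 alone they spanned 3.59 to 4.14, so the medians of the 3 classes did not overlap over the 4 pairs of libraries. The medians of sites without a TSS spanned 1.13 to 1.16, 0.836 to 1.05 and 0.993 to 1.14, and there the range of H3K4me3 alone overlapped the other classes. Individual sites overlapped even with a TSS. Among kept sites with a TSS, the quartiles were 2.16 and 3.55 for both marks and 2.80 and 5.03 for H3K4me3 alone. Those sites also differed in length, with medians of 5995 and 3675 bp, and the part of length was not tested.

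**Figure D1:**
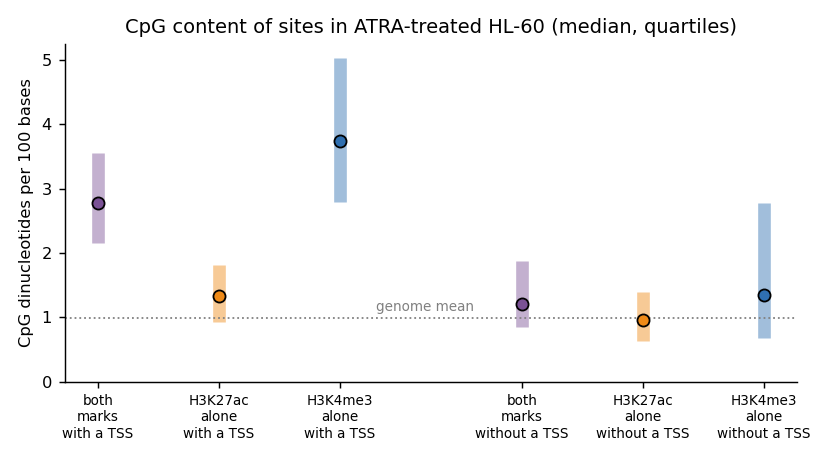
CpG dinucleotides per 100 bases (y axis) for the 6 combinations of site class and TSS overlap in ATRA-treated HL-60 cells, with the median as a point and the quartiles as a bar. Among sites with a TSS, H3K27ac alone sits at 1.33, below both marks at 2.78 and H3K4me3 alone at 3.75, and the dotted line is the genome mean of 0.987.

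Short motifs were counted in 300-base tiles lying wholly within a class and compared with all 9451953 tiles of the genome, on both strands. GAGGAAGT, a core bound by PU.1, the master factor of myeloid cells, was in 2.90% of the 80350 tiles with H3K27ac alone, 2.06% of the 187830 with both marks, 1.65% of the 34494 with H3K4me3 alone and 1.55% of all tiles. Over the 4 pairs of libraries its highest share was 2.12% with both marks and 1.69% with H3K4me3 alone, and the share with H3K27ac alone was above these in each pair. The RUNX core TGTGGTT was in 5.92%, 4.70% and 4.26% of tiles in the same order, against 5.75% of all tiles. The AP-1 core TGANTCA was in 9.54%, 7.51% and 6.75%, against 9.31%, and the C/EBP form TTGCNNAA was in 13.7%, 12.8% and 12.4%, against 15.8%. So RUNX and AP-1 letters were more frequent with H3K27ac alone than in the other classes and close to their share in the genome, and C/EBP letters spanned 13.1% to 15.8% with H3K27ac alone and 12.8% to 13.4% with both marks over the pairs of libraries, which overlap. GGGGCGGGG, bound by SP and KLF factors, showed the opposite order, with 0.704% for H3K27ac alone, 3.74% for both marks, 6.59% for H3K4me3 alone and 0.431% of all tiles. CCGGAAGT, an ETS form typical of housekeeping promoters, was in 0.251%, 0.854% and 0.652% of tiles against 0.142%. This form and the SP and KLF form contain CpG, whose density itself differed between the classes. The DR5 element of retinoic acid receptors, AGGTCA repeated in the same direction with 5 bases between, was in 0.0411% of tiles with H3K27ac alone (33 tiles), 0.00639% with both marks, 0.00580% with H3K4me3 alone and 0.00642% of all tiles, and its share with H3K27ac alone stayed between 0.0241% and 0.0413% over the pairs of libraries. The NFY form AGCCAAT (3.29%, 3.20% and 2.98%, against 3.75%) and the GATA form AGATAAG (3.98%, 3.49% and 3.10%, against 4.35%) were below their genome shares in all 3 classes of kept peaks. These matches are a description of letters and say nothing of binding.

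The libraries behind the sites differed between the marks. The H3K27ac libraries held 28200 and 39332 peaks covering 64.8 and 86.1 Mb, and the H3K4me3 libraries held 16258 and 16487 peaks covering 63.2 and 62.3 Mb. Of the peaks, 73.0% and 50.6% were found in the other H3K27ac replicate and at least 84.6% in the other H3K4me3 replicate. The deposited −log10 q reached 5 in 15.02% and 16.9% of the H3K27ac peaks and in 85.8% and 80.2% of the H3K4me3 peaks. Read depth is unknown, the peak names of the 2 marks carry no common tag, and mark, antibody and tag cannot be told apart.

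H3K27ac peaks were short and mostly away from TSS, and H3K4me3 peaks were longer and close to TSS. The median peak was 1282 and 1216 bp for H3K27ac and 3766 and 3611 bp for H3K4me3. Peak centers lay within 2 kb of a TSS for 44.5% and 36.6% of H3K27ac peaks and for 71.7% and 70.98% of H3K4me3 peaks. Neither measure overlapped between the marks. The median peak length averaged 1249 ± 46.7 bp against 3688.5 ± 110 bp, and the mean share near a TSS was 40.6% ± 5.58 against 71.3% ± 0.489 (SD, n = 2 per mark). The exact two-sided permutation test gave p = 0.33 for both, the smallest value that 2 against 2 libraries allow. Both differences kept their direction in all 10 alternatives run for each, but some of these could not change it. The replicate block gives the main difference by construction, and the alternatives in the TSS set or the peak edge leave peak length unchanged. With equal numbers of peaks per library, an alternative chosen after seeing the data, the differences were −22.6 percentage points and −876 bp.

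The 3 classes of sites had different shapes. Sites with both marks had a median length of 5732.5 bp, with 5464 to 5578 bp over the 4 pairs of single libraries. Sites with H3K27ac alone had a median of 1469 bp (857 to 927 bp), and sites with H3K4me3 alone had 2356 bp (901 to 1266 bp). A TSS was held by 85.5% of sites with both marks, 13.3% of those with H3K27ac alone and 61.7% of those with H3K4me3 alone. Over the pairs of libraries these shares spanned 78.7% to 82.5%, 7.43% to 10.9% and 35.7% to 47.0%, so the order of the classes was the same in each pair. For TSS of protein-coding transcripts the shares were 78.6%, 4.34% and 52.9%. The center of a site with H3K27ac alone lay 7351 bp from the nearest TSS at the median, against 614 bp with both marks and 629 bp with H3K4me3 alone. Over the pairs of libraries these medians spanned 6504 to 8141 bp, 667 to 685 bp and 950 to 1590 bp, so the closeness of the last 2 classes held for kept peaks. Where a site held no TSS, its center was in an intron in 57.3% of sites with both marks, 61.6% of those with H3K27ac alone and 57.3% of those with H3K4me3 alone.

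**Figure D2:**
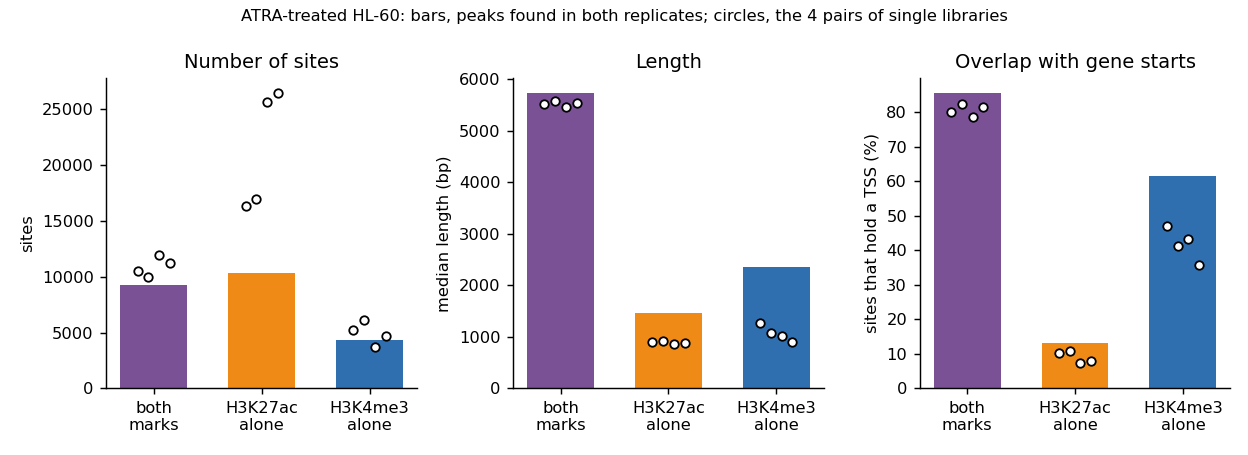
Number of sites, median length (bp) and share of sites holding a TSS (%) for the 3 classes in ATRA-treated HL-60 cells, with bars for peaks found in both replicates and circles for the 4 pairs of single libraries. The H3K27ac-alone bar stands at 10364 sites and its circles between 16311 and 26435, while the share with a TSS keeps the order both marks, H3K4me3 alone, H3K27ac alone in bars and circles.

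A peak of the other mark that was not kept lay less often over sites with H3K27ac alone than over sites with H3K4me3 alone. The H3K27ac libraries also held more peaks that could overlap a site. Of the 10364 sites with H3K27ac alone, 1185 (11.4%) overlapped an H3K4me3 peak of 1 or both libraries that was not among the kept peaks. This left 9179. Of the 4295 sites with H3K4me3 alone, 1904 (44.3%) overlapped such an H3K27ac peak, which left 2391. The class with H3K27ac alone moved most with the libraries, with 26773 sites when H3K27ac was given by replicate 2 only and 17229 when it was given by replicate 1 only. The class with H3K4me3 alone held 2673 sites with H3K27ac from replicate 2 only and 6506 with H3K4me3 from replicate 2 only. With the stricter −log10 q of 5, 259 sites carried both marks, 402 carried H3K27ac alone and 10035 carried H3K4me3 alone, so the balance of the classes turned over with that threshold.

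Within the sites that carried both marks, H3K4me3 usually extended farther than H3K27ac. The median site had 5289 bp of H3K4me3 and 2279 bp of H3K27ac, and H3K4me3 was the longer of the 2 in 7407 sites (80.2%). The H3K27ac lay wholly within the H3K4me3 in 6212 sites (67.3%) and the reverse held in 1040 (11.3%). H3K27ac was split into 2 or more peaks in 853 of the sites (9.24%). In the 1336 sites with both marks and no TSS, the order was reversed, with medians of 2323 bp of H3K27ac and 1525 bp of H3K4me3. The single-library pairs gave 68.1% to 76.4% of sites with the longer H3K4me3. In control cells, where 7350 sites carried both marks, H3K4me3 was longer in 92.3% of kept sites and in 73.3% to 88.1% over the pairs of libraries, a range that overlaps the ATRA one.

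The plot of coverage around gene starts shows the same shape for 20090 protein-coding genes. Peaks covered the position 500 bp downstream of the gene start in 35.4% and 37.8% of genes for H3K27ac and in 50.8% and 50.1% for H3K4me3. At 3000 bp downstream, H3K27ac covered 7.86% and 10.1% of genes and H3K4me3 covered 34.8% and 34.9%. At 20000 bp upstream all 4 libraries lay between 5.37% and 6.26%. The marks therefore differed within a few kb of the start and lay within a narrow range away from it.

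**Figure D3:**
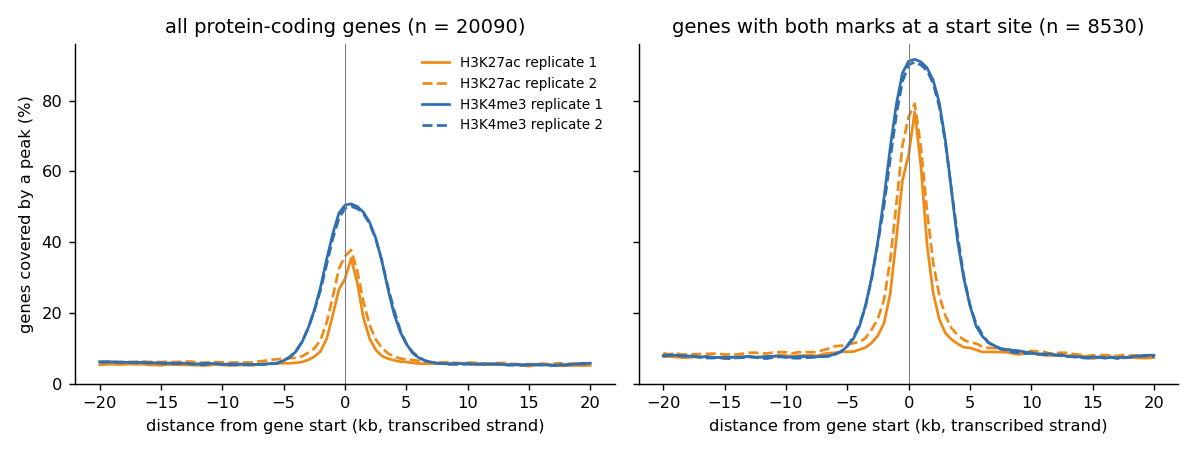
Percentage of genes covered by a peak (y axis) against distance from the gene start (x axis, kb, transcribed strand), for all 20090 protein-coding genes and for the 8530 with both marks at a start site, with 1 line per library. H3K4me3 lines are above H3K27ac lines from 3 kb upstream to 5 kb downstream of the start in both panels, lines cross farther out, and the replicates of H3K4me3 lie on each other.

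Long domains were mostly of H3K27ac. Sites over 20000 bp numbered 148 with both marks, 66 with H3K27ac alone and 0 with H3K4me3 alone, and in 116 of the 148 (78.4%) H3K27ac was the longer mark. The longest site ran over chr20:1782067-1880669 (98603 bp), from intergenic sequence across the start of SIRPA. It held 98355 and 87048 bp of H3K27ac and 16180 and 13102 bp of H3K4me3 in the ATRA libraries. In the control libraries the same interval held 20887 and 29936 bp of H3K27ac and 14209 and 9725 bp of H3K4me3. The next site, chr10:73444366-73517282, lay in introns of the cadherin gene CDH23 and reached the start of C10orf105 and part of VSIR, an inhibitory receptor of leukocytes. Its H3K27ac measured 72917 and 63958 bp and its H3K4me3 6970 and 6202 bp. The site ranked 3, chr8:134066327-134137198, covered the start of SLA, an adaptor that dampens receptor signaling in blood cells. It also held a start site of an annotated transcript of TG, which need not be the start of the TG gene. It had 68509 and 53057 bp of H3K27ac and 25544 and 18609 bp of H3K4me3. In these 3 sites both H3K27ac libraries were above both H3K4me3 libraries. The sites were picked by a length that H3K27ac nearly filled, so nothing is read from this order. Over all sites with both marks, H3K4me3 was the longer mark in 80.2%.

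The longest site with H3K27ac alone, chr1:234996840-235041711 (44872 bp), lay 250441 bp from the nearest protein-coding TSS, that of TOMM20. H3K27ac covered 44872 and 26842 bp of it and H3K4me3 covered 0 bp in both ATRA libraries. H3K27ac was also there in control cells, with 35908 and 18649 bp. The next, chr7:5700550-5745002, lay in introns of the ubiquitin ligase gene RNF216, with 44453 and 38494 bp of H3K27ac and 508 and 0 bp of H3K4me3. The third, chr2:38837312-38878654, lay 7134 bp from a TSS of HNRNPLL, a regulator of splicing in lymphoid cells, with 41343 and 40325 bp of H3K27ac. It also had 1248 and 6709 bp of H3K4me3 in stretches not shared by the replicates, so its class rests on the rule for kept peaks.

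The longest sites with H3K4me3 alone were shorter, with 13214, 12518 and 12284 bp. The first, chr6:26319796-26333009, lay next to the main histone gene cluster and held starts of a noncoding RNA gene and the histone pseudogene H3C9P. It had 13214 bp of H3K4me3 in both libraries and 0 and 952 bp of H3K27ac. The second, chr11:825448-837965, held the starts of CD151, a tetraspanin, and CRACR2B, with 12518 and 9950 bp of H3K4me3 and 1477 and 0 bp of H3K27ac. The third, chr11:558021-570304, held the starts of LMNTD2 and RASSF7 and of MIR210HG, the host transcript of the hypoxia microRNA miR-210, with 12284 and 9716 bp of H3K4me3 and 200 and 671 bp of H3K27ac.

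Most sites with H3K27ac alone lay well away from H3K4me3. For them the nearest site with H3K4me3 was 25598 bp away at the median, within 5 kb for 18.4% and beyond 50 kb for 33.6%. The classes were spread unevenly over chromosomes. Chromosome 19, the most gene-dense, had 50.8% of its 1200 sites with both marks and 24.7% with H3K27ac alone, and chromosome 20 had 55.7% of its 809 sites with H3K27ac alone. In control cells, kept peaks of both marks lay over 75.2% of the ATRA sites with both marks, and H3K4me3 alone lay over 69.7% of those with H3K4me3 alone. Of the ATRA sites with H3K27ac alone, 74.0% had no kept peak of either mark in control cells. The control H3K27ac libraries held 15457 and 29614 peaks, fewer than the corresponding ATRA libraries, and the part of this difference in the last share was not tested.

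At the level of genes, a start site of any protein-coding transcript with 1 kb on each side was scored for kept peaks. Of 20090 genes, 8530 (42.5%) had both marks at a start site, 2589 (12.9%) had H3K4me3 alone, 409 (2.04%) had H3K27ac alone and 8562 (42.6%) had neither. Over the 4 pairs of single libraries, 8884 to 9644 genes had both marks, 1583 to 2323 had H3K4me3 alone and 561 to 614 had H3K27ac alone. H3K27ac without H3K4me3 at a start was thus the rarest state in every pair. In control cells 7374 genes had both marks, 3573 had H3K4me3 alone and 156 had H3K27ac alone.

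To compare the marks gene by gene with the spread between libraries, the length under peaks in the 40 kb window centered on the gene start was tested with limma on log2(bp + 1000). Among 14506 genes with a peak in any of the 4 libraries, 1236 (8.52%) had more H3K27ac than H3K4me3 and 6451 (44.5%) had more H3K4me3, at a Benjamini-Hochberg adjusted p under 0.05. The median difference, H3K27ac minus H3K4me3, was −0.83 on that log2 scale, so most genes had a shorter stretch of H3K27ac. When each library was centered on its own median, 2953 genes had more H3K27ac and 1780 had more H3K4me3, and with the stricter −log10 q of 5 the counts were 45 and 8279. Without H3K27ac replicate 1, 2134 genes had more H3K27ac, and without either H3K4me3 library 0 genes were called in either direction, with 834 and 746 genes toward H3K27ac and 3946 and 3949 toward H3K4me3 at an unadjusted p under 0.05 (without replicate 1 and without replicate 2). Of the 386 tested genes with H3K27ac alone at their start, 258 had more H3K27ac in the window, and of the 2529 with H3K4me3 alone, 1700 had more H3K4me3. The window includes the start sites, so these counts share their peaks with the states.

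The genes with the most H3K27ac in the window were C10orf105, RCSD1, SLC2A5, LYVE1, RAB31, LCP2, CXCR5, SLA, H2BC3 and ALOX5AP. C10orf105 and the SLA start lie within the long sites described above. RCSD1, which encodes an actin capping protein partner, had 40000 and 39104 bp of H3K27ac and 12358 and 13948 bp of H3K4me3. SLC2A5, the fructose transporter, had 36970 and 33274 bp against 6919 and 8526 bp, and had 0 and 7658 bp of H3K27ac and no H3K4me3 in control cells. RAB31, a small GTPase of vesicle transport at chr18:9708272-9862548, had 32512 and 35641 bp of H3K27ac and 0 bp of H3K4me3 in both libraries.

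LCP2, the adaptor SLP-76, had 29947 and 37082 bp of H3K27ac against 13444 and 9714 bp of H3K4me3. CXCR5, a chemokine receptor of lymphocytes, had 34750 and 31787 bp against 4216 and 3254 bp. ALOX5AP, which serves 5-lipoxygenase in leukotriene synthesis, had 29405 and 35065 bp against 6345 and 2387 bp. These adaptor and lipid mediator genes had both marks at their starts. The window of LYVE1 held 32323 and 37059 bp of H3K27ac and 1334 and 0 bp of H3K4me3, and the start of LYVE1 itself carried neither mark, so the window shows the neighborhood. H2BC3, a histone gene, had 28307 and 36318 bp against 22600 and 20983 bp and was the only one of the 10 that was not called (log2 difference 0.54 ± 0.20 SE, adjusted p = 0.0944, limma). With the stricter −log10 q, the differences of C10orf105, RCSD1, SLC2A5, LCP2, CXCR5 and ALOX5AP changed sign.

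The genes with the most H3K4me3 lay in dense gene neighborhoods, and their windows held H3K27ac as well. CRTC2, a coactivator of CREB, had 35316 and 36369 bp of H3K4me3 and 21671 and 19578 bp of H3K27ac, with CREB3L4, SLC39A1 and JTB starting within 40 kb of it. CIRBP, a cold-inducible RNA-binding protein, had 35852 and 30798 bp against 21209 and 19706 bp, and RASSF1, a tumor suppressor, had 32171 and 34281 bp against 20621 and 17041 bp. CRACR2B, whose start carried H3K4me3 alone, had 35274 and 29576 bp against 9534 and 6063 bp. The others were LENEP, MRPL24, C2CD2L, ENSG00000286264, WDR46 and RNF181. These genes were picked by the H3K4me3 in the same windows, so nothing is read from its excess there. The differences of CRTC2, CIRBP and RASSF1 changed sign when libraries were centered.

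Where the test called a gene and the libraries did not overlap, the largest differences toward H3K27ac were at RAB31, GABRR2, FFAR2, KCNIP1 and SLA. The log2 differences were 5.13 ± 0.16 for RAB31, 4.95 ± 0.17 for GABRR2, 4.89 ± 0.18 for FFAR2, 4.81 ± 0.23 for KCNIP1 and 4.79 ± 0.33 for SLA (SE, limma, adjusted p = 0.00635 for each). FFAR2, a short-chain fatty acid receptor of neutrophils at chr19:35934809-35942669, had 31147 and 26468 bp of H3K27ac and no H3K4me3. GABRR2, a subunit of GABA receptors, had 27987 and 32007 bp, and KCNIP1, a potassium channel partner, had 32008 and 22728 bp, also with no H3K4me3. Since H3K4me3 was at 0 bp for 4 of these genes, their differences depend on the 1000 bp added before the logarithm. The SLA window held 405 and 0 bp of H3K4me3. The long site around SLA held 25544 and 18609 bp, mostly outside that window, and SLA had both marks at a start site. Its difference therefore depends on where the window lies.

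Toward H3K4me3, the largest differences were at ZNF419, DGKH, ZNF771, ZNF17 and IGFALS. ZNF419 (chr19:57999079-58007466) had 15465 and 25254 bp of H3K4me3 and 0 bp of H3K27ac in both libraries (−4.38 ± 0.29, adjusted p = 0.00635, limma). The other 2 zinc finger genes followed, with 13074 and 11102 bp against 0 and 0 bp for ZNF771 and 9796 and 18748 bp against 362 and 0 bp for ZNF17. DGKH, a diacylglycerol kinase, had 15617 and 16730 bp of H3K4me3 and 0 and 263 bp of H3K27ac, and IGFALS, a serum carrier of insulin-like growth factors, had 11728 and 10163 bp against 0 and 0 bp. IGFALS carried neither mark at its own start. The zinc finger genes carried H3K4me3 alone at their starts.

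The granulocyte genes were then read by role, from lists chosen with earlier results of these data known. Among 57 genes of 6 lists, 24 had both marks at a start site, 10 had H3K27ac alone, 1 had H3K4me3 alone and 22 had neither. Over all genes these states were found at 42.5%, 2.04%, 12.9% and 42.6%, and the 57 had both marks at 42.1%. In the 40 kb windows 23 of the 52 tested genes had more H3K27ac and 2 had more H3K4me3, beside 8.52% and 44.5% of all genes tested. The median log2 difference of the 52 was 0.82, against −0.83 for all genes, and it was above the median of all genes by 1.12 to 2.21 in the 13 alternatives. Genes of other cell types, given last, were above it as well. With the stricter −log10 q, 1 of the tested members had more H3K27ac and 17 had more H3K4me3, so the distance to the other genes remained while the direction between the marks turned.

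**Figure D4:**
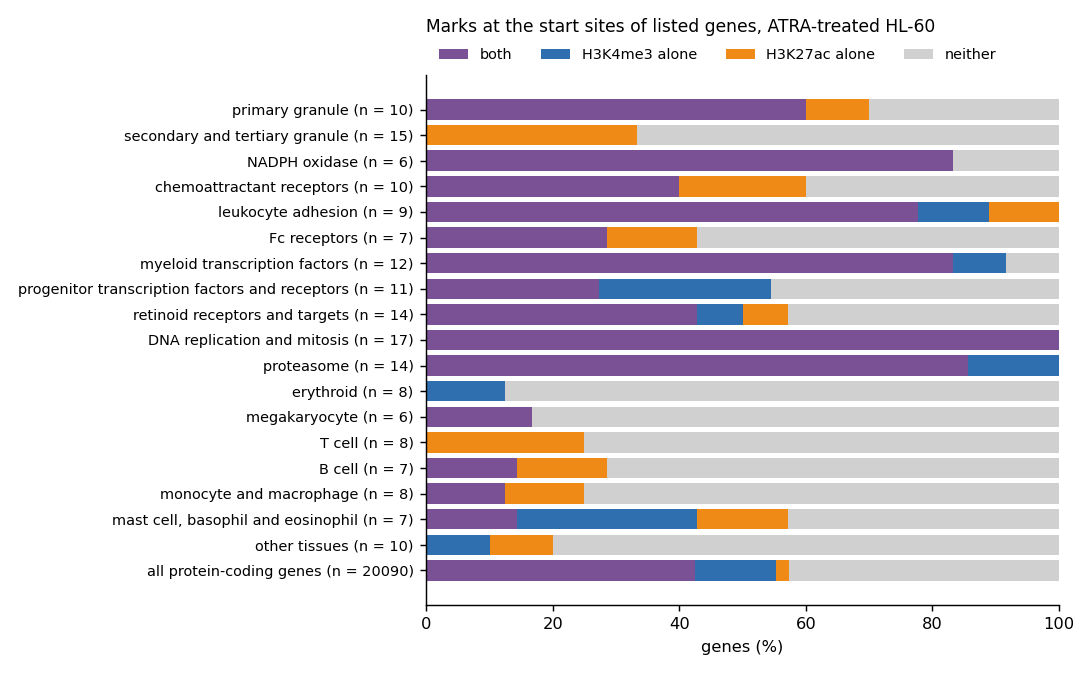
Share of genes (x axis, %) with both marks, H3K4me3 alone, H3K27ac alone or neither at their start sites in ATRA-treated HL-60 cells, for 18 gene lists and all 20090 protein-coding genes (rows, n in brackets). Orange marks H3K27ac alone, which covers 5 of 15 secondary and tertiary granule genes and 2.04% of all genes.

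Primary granule genes encode the proteases and peroxidase that are made at the promyelocyte stage. Of 10, 6 had both marks at a start site, 1 had H3K27ac alone and 3 had neither, and 1 was called in each direction, with 3 toward H3K27ac and 0 toward H3K4me3 when libraries were centered and 0 and 4 with the stricter −log10 q. MPO, the myeloperoxidase, had 19108 and 22065 bp of H3K27ac and 16973 and 17779 bp of H3K4me3, which was not called (0.23 ± 0.17, adjusted p = 0.319, limma). ELANE, neutrophil elastase, had neither mark kept at its own start, and its window held 1801 and 895 bp of H3K27ac against 4039 and 6881 bp of H3K4me3 (−1.45 ± 0.35, adjusted p = 0.0335, limma). PRTN3, proteinase 3, had 6334 and 5894 bp against 5396 and 9573 bp, and AZU1, azurocidin, had H3K27ac alone at its start. These 3 genes lie next to each other, so their windows overlap. The gene called toward H3K27ac, named after its values were seen, was BPI, a bactericidal protein, with 26108 and 26277 bp against 4876 and 5630 bp. LYZ and DEFA4 had neither mark at a start, and the window of DEFA4, a defensin, held no peak of either mark.

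Secondary and tertiary granule genes, which are made later in neutrophil maturation, carried no H3K4me3 at any start. Of 15, 5 had H3K27ac alone and 10 had neither, beside 2.04% and 42.6% of all genes. Of the 13 tested, 7 had more H3K27ac and 0 had more H3K4me3, beside 8.52% and 44.5% of all genes tested. The 5 with H3K27ac alone were LCN2, CAMP, MMP9, MMP25 and CHI3L1. CHI3L1 (chr1:203148059-203155832) had 12534 and 11275 bp of H3K27ac and 0 bp of H3K4me3 in both libraries, against 947 and 5559 bp and 0 bp in control cells (3.69 ± 0.16, adjusted p = 0.00635, limma). MMP9, gelatinase B, had 6297 and 6282 bp of H3K27ac and 2419 and 804 bp of H3K4me3. CAMP, the cathelicidin precursor, had 6027 and 5832 bp against 2721 and 2728 bp, and MMP25, a membrane-bound protease, had 15469 and 17030 bp against 10882 and 9189 bp. For LCN2, lipocalin 2, the H3K27ac libraries differed, with 13429 and 3689 bp, and the difference to the 4582 and 4377 bp of H3K4me3 was not called (adjusted p = 0.442, limma).

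Of the 10 with neither mark at a start, some had H3K27ac in the window. OLFM4, a glycoprotein of specific granules, had 10324 and 16600 bp of H3K27ac and 391 and 0 bp of H3K4me3. LTF, lactoferrin, had 3724 and 3643 bp and no H3K4me3, and FCN1, ficolin 1, had 1668 and 7098 bp and no H3K4me3. Those 3 were called toward H3K27ac. The windows of CRISP3 and ARG1 held no peak of either mark in any ATRA library, that of ARG1 leaving out much of the gene, MMP8 had 0 and 262 bp of H3K27ac only, and the windows of CEACAM8, PGLYRP1, HP and TCN1 had H3K27ac in 1 or both libraries without a call. With the stricter −log10 q, CAMP, MMP9 and MMP25 changed sign, and of the 10 members still tested 1 had more H3K27ac and 1 had more H3K4me3.

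The NADPH oxidase makes superoxide in neutrophils from membrane subunits, among them CYBB and CYBA, cytosolic subunits such as NCF1 and NCF4, and the GTPase RAC2. Of the 6 listed genes, 5 had both marks at a start site, beside 42.5% of all genes, and NCF1 had neither. In the window 4 had more H3K27ac and 1 had more H3K4me3, beside 8.52% and 44.5% of all genes tested. CYBB (chrX:37639271-37672714) had 20343 and 31072 bp of H3K27ac against 6683 and 3605 bp of H3K4me3, with no H3K4me3 in control cells (2.14 ± 0.37, adjusted p = 0.0174, limma). NCF4 and RAC2, named after their values were seen, were also called toward H3K27ac. NCF4 had 18945 and 15798 bp against 4933 and 3884 bp, and RAC2 had 21812 and 18292 bp against 7917 and 6315 bp. CYBA was opposite, with 2114 and 1440 bp of H3K27ac and 9016 and 7277 bp of H3K4me3. NCF1 had 0 and 2507 bp against 351 and 333 bp, and it shares near-identical copies in the genome, so its peaks are uncertain. With the stricter −log10 q the list turned, with 0 members toward H3K27ac, 2 toward H3K4me3 and a median of −0.92 in place of 1.57, and CYBB changed sign.

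**Figure D5:**
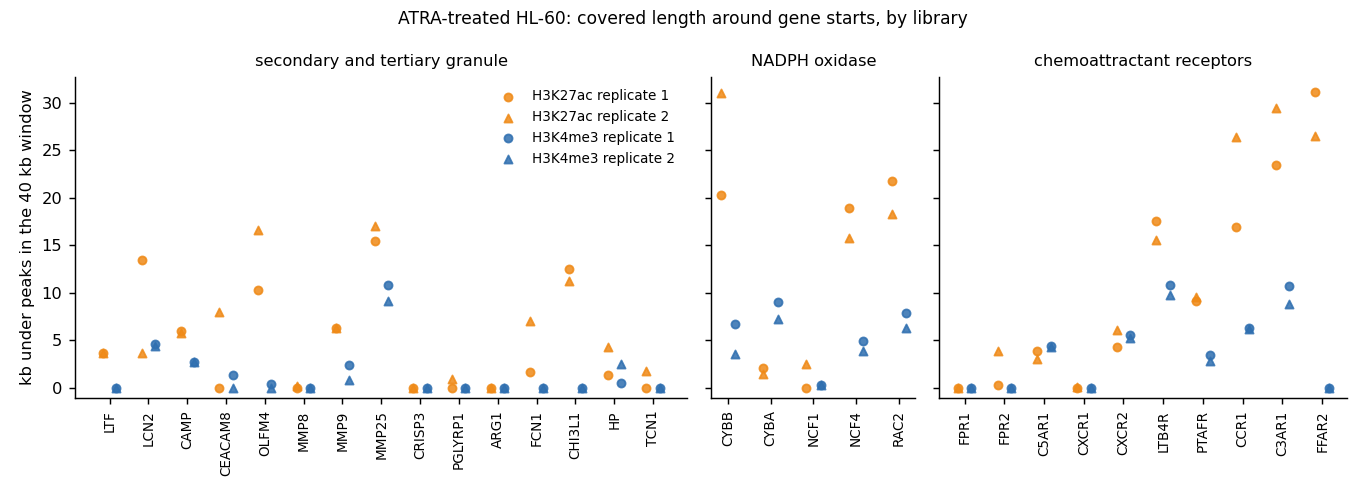
Length under peaks (y axis, kb) in the 40 kb window of each gene (x axis) in the 4 ATRA libraries, for the secondary and tertiary granule genes, 5 of the NADPH oxidase genes and the chemoattractant receptor genes, with H3K27ac in orange, H3K4me3 in blue, circles for replicate 1 and triangles for replicate 2. Both H3K27ac libraries stand above both H3K4me3 libraries at CYBB, NCF4, RAC2 and FFAR2, and the order is opposite at CYBA. Over all genes tested, 15% had both H3K27ac libraries above both H3K4me3 libraries.

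Chemoattractant receptors guide neutrophils toward bacteria, complement and chemokines. Of 10, 4 had both marks at a start site, 2 had H3K27ac alone and 4 had neither, beside 42.5%, 2.04% and 42.6% of all genes. Of the 9 tested, 5 had more H3K27ac, beside 8.52% of all genes tested. Both with H3K27ac alone were called. They were FFAR2, given above, and LTB4R, the leukotriene B4 receptor, with 17603 and 15554 bp of H3K27ac against 10880 and 9752 bp of H3K4me3. FPR1, a formyl peptide receptor, had no peak in any ATRA library within 20 kb of its record start, a window that leaves out much of the gene. FPR2 had 279 and 3942 bp of H3K27ac and 0 and 50 bp of H3K4me3, C5AR1, a complement receptor, had 3910 and 3075 bp against 4452 and 4365 bp, and CXCR1 had 0 and 96 bp against 0 bp. None of these 3 was called, and FPR1 could not be tested. The other genes called toward H3K27ac, named after their values were seen, were PTAFR, CCR1 and C3AR1. With the stricter −log10 q the list turned, with 0 of 7 tested members toward H3K27ac, 4 toward H3K4me3 and a median of −1.95, and LTB4R changed sign.

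Adhesion molecules had both marks at most starts. Of the 9 found of 10 listed, 7 had both, beside 42.5% of all genes, 1 had H3K4me3 alone and CD44 had H3K27ac alone. In the window 6 had more H3K27ac, beside 8.52% of all genes tested. ITGAM, the CD11b chain that is used as a marker of this differentiation, had 8663 and 14188 bp of H3K27ac against 4818 and 3013 bp of H3K4me3. In control cells its window held 0 and 4079 bp against 1004 and 534 bp. ITGAX had 14648 and 12202 bp against 1942 and 954 bp, and ITGAL had 33242 and 25721 bp against 7753 and 3790 bp. ITGB2, their common chain, had 10201 and 15258 bp against 23717 and 16973 bp and was not called. For the 3 integrin chains ITGAM, ITGAX and ITGAL the sign changed with the stricter −log10 q, under which 0 of the 9 were called toward H3K27ac and 5 toward H3K4me3.

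Fc receptors bind immunoglobulin. Of 7, 2 had both marks, FCGRT, the neonatal receptor, had H3K27ac alone, and FCGR1A, FCGR2B, FCGR3B and FCAR had neither. None of the 6 tested was called. The H3K27ac libraries differed for several of them, with 290 and 8739 bp at FCGR1A and 0 and 18635 bp at FCGR3B, which shares near-identical copies with its neighbors.

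Transcription factors of the lineage mostly had both marks. Of 12 myeloid factors, 10 had both marks at a start site, beside 42.5% of all genes, CEBPA had H3K4me3 alone and IRF8 had neither. In the window 1 of the 10 tested was called. With centered libraries 7 were called toward H3K27ac, and with the stricter −log10 q 7 were called toward H3K4me3. The called gene was RUNX3, with 29044 and 14606 bp of H3K27ac against 824 and 374 bp of H3K4me3. RUNX3 had both marks at a start site, and its window, centered on the record start, does not count H3K4me3 at start sites outside it. CEBPA had 11423 and 6847 bp of H3K27ac against 9415 and 10329 bp of H3K4me3 in its window, CEBPB had 8196 and 10184 bp against 7644 and 7951 bp, and CEBPE had 19613 and 15378 bp against 11662 and 13946 bp. None of these 3 C/EBP genes was called. IRF8 had no peak in any ATRA library within 20 kb of its start. Of 11 progenitor factors and receptors, 3 had both marks, 3 had H3K4me3 alone and 5 had neither, and 2 of the 9 tested were called toward H3K4me3, beside 44.5% of all genes. Their median log2 difference was 0.17, above the −0.83 of all genes, and with centered libraries 4 were called toward H3K27ac and 2 toward H3K4me3. The 2 called genes were GATA2, a factor of stem and progenitor cells, with 0 and 690 bp of H3K27ac against 7596 and 8347 bp of H3K4me3, and ZBTB16, a zinc finger repressor named after its values were seen, with 0 bp against 3127 and 4180 bp. CD34, MEIS1, HOXA9, ERG and TAL1 had neither mark at a start.

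Retinoid genes were mixed. Of 14 receptors and known targets, 6 had both marks at a start site, RXRA had H3K4me3 alone, TGM2 had H3K27ac alone and 6 had neither, with 1 called toward H3K27ac and 2 toward H3K4me3, and with 4 and 1 when libraries were centered and 0 and 5 with the stricter −log10 q. TGM2, a transglutaminase induced by retinoic acid (chr20:36755787-36794980), had 16577 and 10551 bp of H3K27ac in ATRA-treated cells, no H3K4me3, and 0 bp of either mark in control cells. RARA, the receptor, had 23895 and 18724 bp of H3K27ac against 16451 and 12704 bp of H3K4me3 and was not called. RARG had 4048 and 3991 bp against 13789 and 9604 bp, and RXRA had 0 and 396 bp against 3516 and 3230 bp. With the gene body as window RXRA changed sign. RARB, RXRG, CYP26A1, CYP26B1, STRA6 and CRABP2 had neither mark at a start.

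Genes of DNA replication and mitosis and of the proteasome leaned toward H3K4me3, as all genes tested did. All 17 genes of DNA replication and mitosis had both marks at a start site, beside 42.5% of all genes, and 11 had more H3K4me3 and 0 more H3K27ac, beside 44.5% and 8.52% of all genes tested, with a median log2 difference of −0.96 beside −0.83 for all genes. PCNA, the replication clamp, had 4467 and 6066 bp of H3K27ac against 16647 and 17491 bp of H3K4me3, and was named after its values were seen. In helicase subunits that were listed first, MCM2 had 11031 and 8079 bp against 15464 and 15449 bp, MCM3 had 3483 and 7316 bp against 8706 and 9209 bp, neither of which was called, and MCM4 had 3309 and 3303 bp against 6672 and 7887 bp. Of 14 proteasome genes 12 had both marks and PSMA2 and PSMB6 had H3K4me3 alone, with 9 toward H3K4me3, beside the same 44.5%, and a median of −1.09. When libraries were centered, 0 of the 17 and 2 of the 14 were called toward H3K4me3 and 1 proteasome gene toward H3K27ac.

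Markers of other cells were checked against the label. Of 54 genes in 7 lists, 4 had both marks, 4 had H3K4me3 alone, 6 had H3K27ac alone and 40 had neither, beside 42.6% of all genes with neither. HBA1 and HBB of red cells, PF4 and PPBP of platelets, MS4A1, CD79B and PAX5 of B cells, CD8A of T cells, CD163 and MRC1 of macrophages, and ALB, INS and KRT5 of other tissues had no peak of either mark in their 40 kb windows in any ATRA library. The megakaryocyte, B cell, monocyte and macrophage, and mast cell, basophil and eosinophil lists each had 1 member with both marks at a start site. The exceptions with H3K27ac alone included CD3E and LCK of T cells, CD68 of macrophages, HDC of basophils and GFAP. CD3E had 7270 and 11683 bp of H3K27ac and no H3K4me3, LCK had 7321 and 6356 bp and no H3K4me3, and HDC had 6712 and 13032 bp and no H3K4me3. Among the 31 tested genes, 7 had more H3K27ac and 6 had more H3K4me3, with a median log2 difference of 0.35. That median was also above the one of all genes, by 0.56 to 1.59 over the alternatives, so a position above all genes was not particular to the granulocyte lists. CD3G and CD14, called toward H3K4me3, changed sign with other settings. Of the granulocyte genes, FCAR, CRISP3 and DEFA4 had no peak of either mark in their windows in any ATRA library either.

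Clusters of several sites with H3K27ac alone were found around some genes. The window of CCL3, a chemokine of myeloid cells, held 11 such sites, with 20145 and 29081 bp of H3K27ac and 1657 and 0 bp of H3K4me3, and that of its neighbor CCL4 held 8. DPEP2, a dipeptidase that converts leukotrienes, also had 8, with 22735 and 33943 bp against 2886 and 915 bp. In control cells H3K27ac covered 0 and 8137 bp at CCL3 and 3123 and 11531 bp at DPEP2. These genes were ranked by their number of sites after the values were seen.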

How the data were processed

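The 4 ATRA libraries of H3K27ac and H3K4me3 were analyzed, with the 4 control libraries beside them. Per the labels and the study's methods, the authors trimmed adapters (cutadapt), mapped the reads by Bowtie on hg19, and ran MACS2 for broad peaks library by library (-g hs --nomodel --broad). Input libraries were also made, per the study's methods, and whether they entered the peak calls is not given in the sources used here. Positions were used as deposited. The deposited −log10 q, written by MACS2, served only for a stricter selection, and the deposited signal and p columns were not used because their values could not be read as such. Read counts were not used here, so depth is unknown.

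Sites were kept peaks (replicate 1 peaks sharing at least 1 bp with replicate 2) of both marks, merged. Genes were those of GENCODE 44 placed on GRCh37. A TSS of any annotated transcript was used for distances, protein-coding transcripts with 1 kb on each side for start-site states, and 40 kb windows centered on the gene record's start for limma 3.58.1 (R 4.3.3) on log2(bp + 1000), over genes with a peak in any ATRA library, with Benjamini-Hochberg adjustment at 0.05. Single values were compared by exact two-sided permutation over the libraries. Sequences and motif letters were read with pysam 0.24.0. The scripts were tested on simulated data. Groups came from the sample titles. Some members of the lists are counted and not reported here by name.

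Members, gene lists and tests were chosen with earlier results of these data known. Named genes were the 10 with the most of each mark, the 5 called genes with the largest difference each way, the 3 longest sites per class, and, of each list, members with H3K27ac alone or neither mark and up to 4 in list order. Of the −log10 q, overlap, length, window, added value, centering, replicate and block alternatives, all were planned except equal numbers of peaks per library and the start-site alternatives.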

Additional observations from a re-analysis of the deposited data

How the results depend on the processing

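Sites with both marks (9232) numbered 5765 with 50% reciprocal overlap of replicates and 259 with −log10 q of at least 5, and 9571 to 10787 with 1 library left out. H3K27ac alone (10364) gave 4201 and 402 under these, 6425 with peaks of at least 1 kb, 5194 with equal numbers of peaks, and 9499 to 26773 with a library left out. H3K4me3 alone (4295) gave 10035 at the stricter q, 6923 with equal numbers and 2673 to 6506 with a library left out. Without any peak of the other mark in either of its libraries, 2391 of these sites were left. The TSS share difference was −22.6 with equal numbers and −34.7 to −26.8 with a library left out. The length difference was −3018.25 bp at the stricter q, −2247 bp with peaks of at least 1 kb, −876 bp with equal numbers, and −2517 to −2362 bp with a library left out. Start sites with H3K4me3 alone numbered 4837 with reciprocal overlap, 9063 at the stricter q, 4151 with peaks of at least 1 kb and 1528 to 2670 with a library left out. Those with both marks numbered 235 at the stricter q and 8537 to 9591 with a library left out, and those with H3K27ac alone 55 and 368 to 628. Genes with more H3K27ac numbered 2953 when centered, 45 at the stricter q and 0 to 2134 with a library left out, and genes with more H3K4me3 numbered 1780 when centered and 0 to 7752. The cause was not tested. Equal numbers of peaks and the start-site alternatives were chosen after seeing the data.

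With the replicate number as a block in limma, 1146 and 5930 genes were called toward H3K27ac and H3K4me3. For sites, single libraries of the same number were paired and the counts averaged, which gave 21373 sites with H3K27ac alone. Those pairs leave out the rule that a peak be found in both replicates, so this count is not comparable with 10364. Libraries of one number did not deviate together in their peak coverage (r = −0.022 over 75918 bins). This value cannot show whether they shared a culture or preparation.

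At the stricter q the log2 difference changed sign for C10orf105 (−1.32), RCSD1 (−3.82), SLC2A5 (−2.23), LCP2 (−3.61), CXCR5 (−0.975), ALOX5AP (−0.38), CAMP (−0.95), MMP9 (−1.31), MMP25 (−3.17), CYBB (−0.53), LTB4R (−1.43), ITGAM (−1.96), ITGAX (−0.14) and ITGAL (−0.88). Centering changed it for CRTC2 (0.093), CIRBP (0.19), RASSF1 (0.071) and CD3G (0.23), the gene body for RXRA (1.42) and CD14 (1.91), and the 20 kb window for CD3G (1.04) and CD14 (0.028). Of 783 values for 61 named genes, 520 kept their side of the threshold and, for genes called in the main fit, their direction. Another 232 no longer passed it, 9 newly passed it and 22 changed sign. Sign changes were counted only for genes called in the main fit. Without read counts, a missing peak cannot be told apart from too little sequencing.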
